A study of Mus musculus with 51 samples.

Results

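The Hox genes of the 4 mammalian clusters were described through the peaks of 2 histone marks that lie within these clusters during astroglial differentiation of mouse embryonic stem cells (mESCs). The members were 38 Hox genes, of 22219 coding genes in the annotation. Their windows ran from the first to the last member of a cluster with 20 kb added on each side, in the mouse genome build mm9. The windows were chr6:52092350-52230874 for Hoxa (10 members), chr11:96035630-96249570 for Hoxb (10 members), chr15:102731534-102887274 for Hoxc (9 members) and chr2:74486367-74623200 for Hoxd (9 members). Of 803595 peaks in the 6 deposited lists, 261 lay in these windows.

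Acetylation of lysine 27 of histone H3 (H3K27ac), a mark of active promoters and enhancers, and monomethylation of lysine 4 (H3K4me1), a mark of primed or active enhancers, were profiled by chromatin immunoprecipitation sequencing (ChIP-seq) in 3 groups of cells. The groups were astrogliogenic neural progenitors (aNPC), early astrocytes (eA) after 1 day of differentiation, and late astrocytes (lA) after 5 days. All were grown in vitro from mESCs of the C57/BL-6 background, and their labels name no siRNA or genotype change. aNPC were kept in DMEM-F12 with N2, EGF and FGF-2, and eA and lA in DMEM with serum and LIF. The stages are cultures of mESC origin rather than cells dissected from a brain region. Each list came from 2 replicates that the authors had merged, so that no difference between stages has a replicate error and no test between stages could be made. The lists held 79413, 83433 and 92700 H3K27ac peaks and 154238, 185478 and 208333 H3K4me1 peaks in aNPC, eA and lA. The lowest −log10 q in a list lay between 1.40 and 1.53. The read depth behind the lists is unknown, so that a region without a peak does not show that the mark was absent. As a check of the cell type, H3K27ac peaks were found at the promoters of 5, 5 and 6 of 8 astrocyte markers, 4 of 5 neural progenitor markers at each stage, 1 of 3 neuronal markers (Tubb3) and 0 of 2 pluripotency markers, against 50.7%, 53.3% and 48.3% of all coding genes. These counts do not tell the stages apart.

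Hox genes encode homeodomain transcription factors that give cells of the hindbrain, spinal cord and trunk their position along the head-to-tail axis. Within a cluster, the genes at the 3′ end (low paralogue numbers) are used earlier and further to the front of the embryo than the genes at the 5′ end (high numbers), and forebrain and midbrain cells lie in front of the Hox domain. Silent Hox chromatin is held by Polycomb complexes, and its opening from the 3′ side is promoted by retinoic acid and FGF signals, with CTCF binding at known borders inside the clusters. Paralogue groups 1 to 3 are called anterior here, 4 to 8 central and 9 to 13 posterior.

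The sequences under the H3K27ac peaks on which the results turn are shown first. Each is the 200 bp centred on the summit of a peak in mm9, read on the strand of the Hox genes of that cluster (minus for Hoxa, plus for Hoxc and Hoxd), and shortened to the bases outside annotated untranslated exons where it met one. The first pair are the highest peaks of the active clusters, at Hoxa5 (chr6:52153696-52153895) and at the upstream start of Hoxd3 (chr2:74549832-74549985), both in aNPC. The next pair mark the outermost H3K27ac on the 5′ side in aNPC, at Hoxa7 (chr6:52171525-52171635) and Hoxd9 (chr2:74536119-74536318). Hoxc6 (chr15:102829698-102829897) is the summit of the single Hoxc peak. The last 3 are the highest sites found at 1 stage alone, namely before a Hoxd4 start in aNPC (chr2:74558951-74559150), in Hoxa2 in eA (chr6:52114126-52114325) and in the shared intron of Hoxd3 and Hoxd4 in lA (chr2:74564440-74564639). Capitals mark CG dinucleotides.
Hoxa5: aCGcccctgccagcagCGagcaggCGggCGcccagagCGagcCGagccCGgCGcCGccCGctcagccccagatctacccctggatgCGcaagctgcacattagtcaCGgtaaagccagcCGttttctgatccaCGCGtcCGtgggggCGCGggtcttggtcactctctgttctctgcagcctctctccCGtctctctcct
Hoxd3: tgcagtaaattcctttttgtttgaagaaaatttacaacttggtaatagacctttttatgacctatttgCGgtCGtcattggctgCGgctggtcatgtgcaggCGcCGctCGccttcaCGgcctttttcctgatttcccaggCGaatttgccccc
Hoxa7: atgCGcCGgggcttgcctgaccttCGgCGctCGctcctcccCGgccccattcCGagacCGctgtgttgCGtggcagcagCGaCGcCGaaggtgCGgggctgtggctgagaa
Hoxd9: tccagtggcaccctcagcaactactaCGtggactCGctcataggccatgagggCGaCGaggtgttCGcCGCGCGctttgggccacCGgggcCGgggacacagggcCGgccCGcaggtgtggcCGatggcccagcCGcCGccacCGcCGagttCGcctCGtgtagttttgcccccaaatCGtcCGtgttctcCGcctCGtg
Hoxc6: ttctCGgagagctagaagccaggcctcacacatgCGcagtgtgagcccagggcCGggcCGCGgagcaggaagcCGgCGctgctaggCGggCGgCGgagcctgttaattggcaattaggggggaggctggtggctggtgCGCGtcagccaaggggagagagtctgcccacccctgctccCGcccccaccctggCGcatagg
aNPC only: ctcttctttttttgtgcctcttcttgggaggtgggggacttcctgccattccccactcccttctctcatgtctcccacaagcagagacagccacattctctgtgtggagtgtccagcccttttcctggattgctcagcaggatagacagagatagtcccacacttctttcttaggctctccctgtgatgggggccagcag
eA only: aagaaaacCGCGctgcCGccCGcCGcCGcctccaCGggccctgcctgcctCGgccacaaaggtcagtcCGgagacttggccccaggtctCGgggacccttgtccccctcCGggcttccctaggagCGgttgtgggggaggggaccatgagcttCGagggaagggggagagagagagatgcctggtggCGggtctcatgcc
lA only: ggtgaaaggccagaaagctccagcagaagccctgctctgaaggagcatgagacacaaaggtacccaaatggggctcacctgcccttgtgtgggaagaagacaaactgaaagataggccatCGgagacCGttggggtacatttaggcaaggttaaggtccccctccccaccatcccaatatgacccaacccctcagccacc

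The 200 bp windows at Hoxa5, Hoxd9, Hoxc6 and Hoxa2 held 19, 23, 14 and 14 CG dinucleotides, while the aNPC-only and lA-only windows of Hoxd held 0 and 2. Of the shortened windows, Hoxa7 held 13 in 111 bp and Hoxd3 held 8 in 154 bp. Over all H3K27ac summits of the Hox windows, the median 200 bp held 9 CG dinucleotides in aNPC, 12 in eA and 3 in lA, against 2 at each stage over all H3K27ac summits. The whole windows held 25.9 CG dinucleotides per kb in Hoxa, 25.5 in Hoxd, 19.1 in Hoxb and 18.3 in Hoxc. Per base, the aNPC and eA medians were above the average of each window, and the lA median was below it. The median GC content of the Hox summits was 56.5%, 58.5% and 54.8%, against 49.0%, 49.5% and 49.0% over the lists. At H3K4me1 summits of the Hox windows, the median number of CG dinucleotides was 9, 10 and 12, against 2 at each stage over all H3K4me1 summits.

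A further window was singled out after its values were seen, because it holds the letters of a retinoic acid response element. Such an element has a pair of half-sites 5 bases apart. The half-sites GGTTCA and AGTTCA, and AGGTCA in both places, were searched with any 5 bases between them on both strands. The first of these forms occurred 5 times in the 4 windows, 2 times in Hoxa, 2 times in Hoxb and 1 time in Hoxd, and the second was not found. Of these 5 matches, 1 lay inside an H3K27ac peak. It is found in an intron of Hoxa3 at chr6:52125532-52125548, and capitals mark it in the 200 bp around the aNPC summit (chr6:52125424-52125623, minus strand).
Hoxa3 intron: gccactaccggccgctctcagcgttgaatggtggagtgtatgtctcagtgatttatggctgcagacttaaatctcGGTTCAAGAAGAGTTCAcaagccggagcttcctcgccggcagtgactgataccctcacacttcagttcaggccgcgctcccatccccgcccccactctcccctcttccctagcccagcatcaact

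This Hoxa3 intron peak was present at every stage. It spanned chr6:52125017-52126677 in aNPC (−log10 q of 90.5), chr6:52124995-52125689 in eA (43.8) and chr6:52125033-52125663 in lA (24.3), and in eA and lA a further peak followed on the far side. These values, the significance that the authors' peak caller gave to a peak, depend on the depth of a list, so ranks within the list are given with them, and these in turn move with the length of the list. The peak stood at the 92.1, 84.3 and 84.4 percentile of its list. No H3K4me1 peak covered the matching letters at any stage. Further along the same H3K27ac site, H3K4me1 peaks did overlap it in aNPC (chr6:52126190-52126839, −log10 q of 8.67) and eA (chr6:52126638-52126819, 3.20), but not in lA. Over all H3K27ac summits, the 200 bp around the summit held these letters in 3 of 79412 windows in aNPC (0.00378%), 2 of 83429 in eA and 2 of 92698 in lA. A match of letters is not evidence of binding.

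To ask which clusters carry active chromatin, H3K27ac peaks were counted per window. Hoxa held 13, 18 and 15 peaks in aNPC, eA and lA, and Hoxd held 7, 6 and 9. Hoxb held 0, 3 and 0, and Hoxc held 1, 0 and 0. The 4 peaks of Hoxb and Hoxc were all weak, with −log10 q between 3.12 and 3.72 and percentiles between 4.80 and 9.88, and none reached a −log10 q of 5. At that threshold, Hoxa kept 11, 14 and 10 peaks and Hoxd kept 6, 6 and 8. The H3K27ac peaks covered 6.40%, 6.64% and 5.42% of the Hoxa window and 4.89%, 1.82% and 4.96% of the Hoxd window, against 1.71%, 1.67% and 1.89% of the genome. In Hoxb the covered share was 0.247% in eA and in Hoxc 0.198% in aNPC, and 0 elsewhere.

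**Figure D1:**
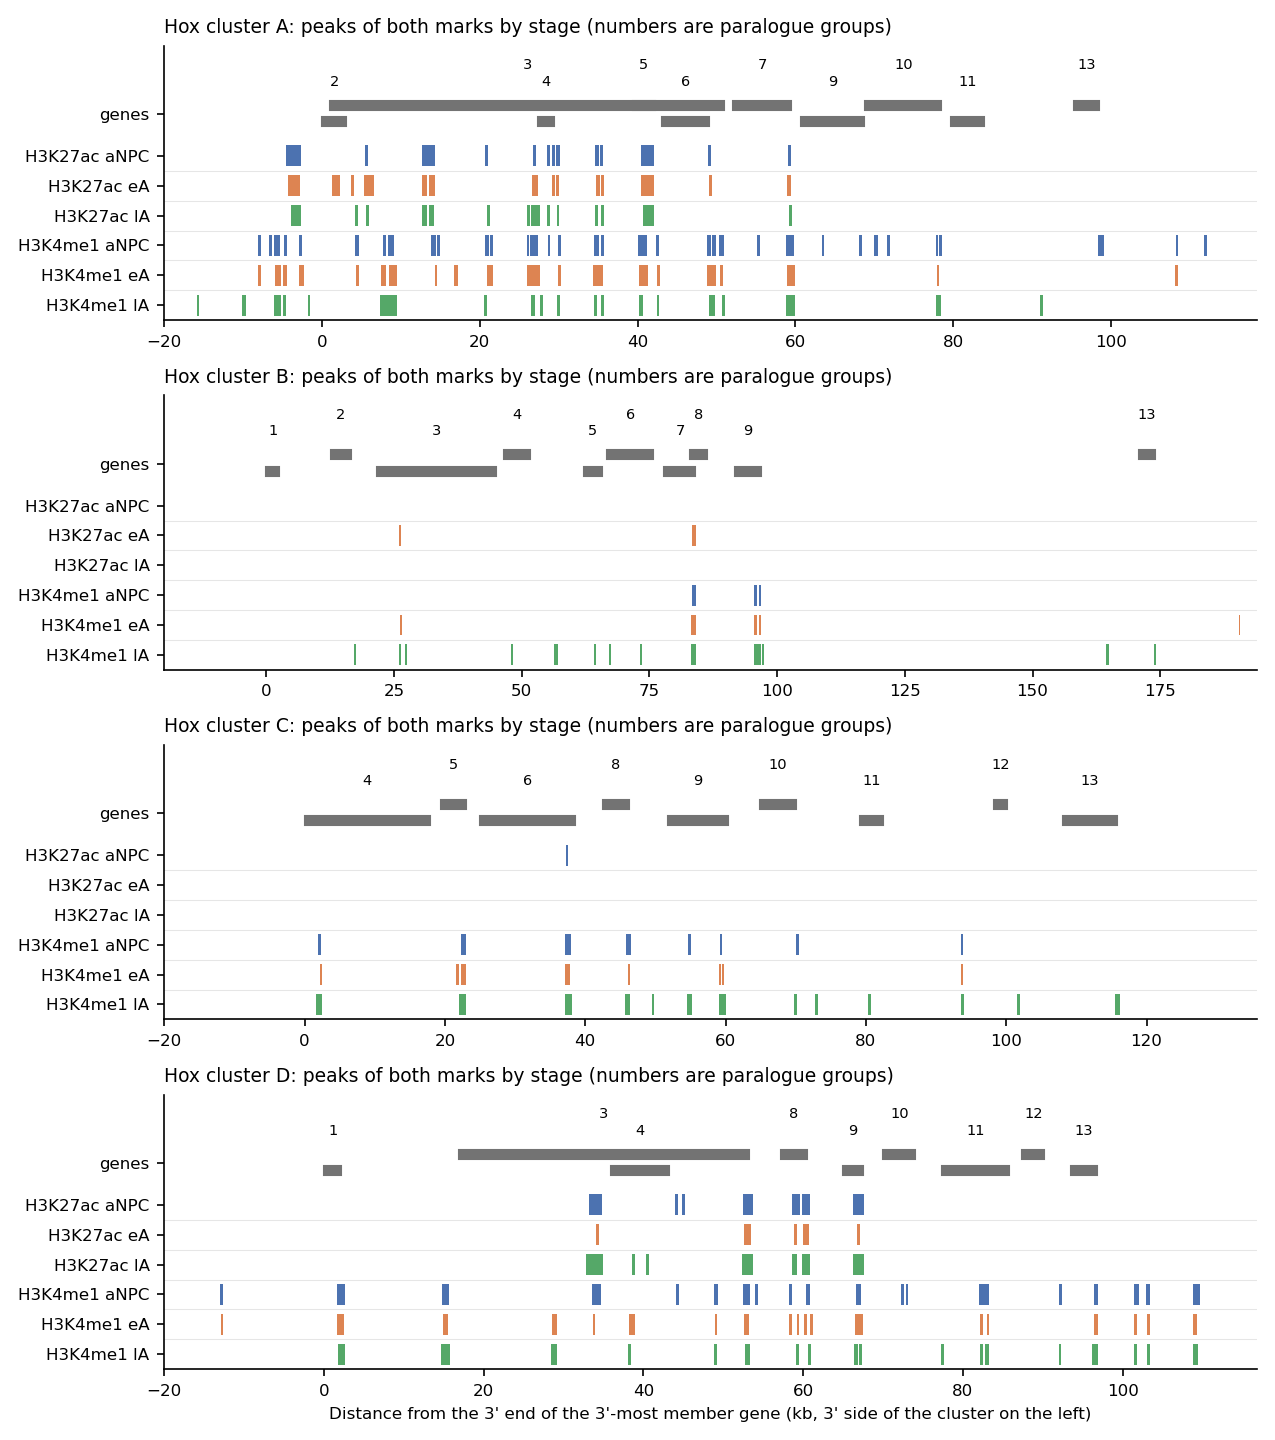
Peaks of H3K27ac and H3K4me1 along the 4 Hox clusters, by stage. The horizontal axis is the distance in kb from the 3′ end of the 3′-most member gene, with the 3′ side on the left; grey bars are the member genes with their paralogue group, and coloured bars are peaks, drawn at least 0.35 kb wide. H3K27ac stops at Hoxa7 and at Hoxd9, while H3K4me1 runs on into the 5′ parts of the clusters.

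H3K27ac lay in the 3′ and middle parts of Hoxa and in the middle of Hoxd. In Hoxa, the peak nearest the 5′ end was at Hoxa7, a gene of thoracic identity, in every list, and the outer edge lay at chr6:52171788 in aNPC, 52171826 in eA and 52171723 in lA. From there 39.1, 39.0 and 39.2 kb up to the end of Hoxa13 held no H3K27ac peak, so that Hoxa9, Hoxa10, Hoxa11 and Hoxa13 had none at any stage. In Hoxd, H3K27ac began at Hoxd9 (chr2:74535531, 74536119 and 74535544) and ended in the Hoxd3 gene, over 34.5, 33.0 and 34.9 kb. The 29.2, 29.8 and 29.2 kb on the 5′ side held no H3K27ac peak, and with them Hoxd10, Hoxd11, Hoxd12 and Hoxd13, which pattern the limbs and the lumbosacral trunk. Hoxd1, at the 3′ end, had none either. Assigned to the nearest start of a member, 1 H3K27ac peak per stage belonged to a posterior gene, and that gene was Hoxd9 in each list.

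CTCF letters (CCA, any 2 bases, AG, any 2 bases and GGC, on both strands) occurred 8 times in the Hoxa window, 23 times in Hoxb, 6 times in Hoxc and 3 times in Hoxd. Of the 8 matches in Hoxa, 3 met an H3K27ac peak of some stage, and all 3 also met H3K4me1 peaks. A pair of them were within the acetylated part of the cluster, at chr6:52139607-52139618 on the 3′ side of Hoxa4 (in an eA peak) and at chr6:52161281-52161292 near the upstream end of Hoxa6 (across the edge of an aNPC peak). The third match, with the plus-strand letters GCCATCTCCTGG, lay at chr6:52171808-52171819, 45 bp inside the outermost Hoxa7 start. It was within the eA H3K27ac peak of Hoxa7 and just beyond the outer edge of the aNPC and lA peaks, and H3K4me1 peaks covered it at all 3 stages. Here too a match of letters is not evidence of binding, and whether CTCF is bound at this edge was not tested. None of the matches in Hoxb and Hoxc lay in a peak of either mark, and none of those in Hoxd lay in an H3K27ac peak. In the 200 bp around H3K27ac summits, these letters were found in 0 of 21, 0 of 27 and 0 of 24 Hox windows, and in 0.937%, 0.965% and 0.977% of all windows. The letters TGAT and AT with any 2 bases between them, a form of the HOX and PBX composite site, were found in 2 of 21, 0 of 27 and 0 of 24 Hox windows, against 6.39%, 6.34% and 6.68%.

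In Hoxa, the strongest peaks were at Hoxa5 and in the 3′ flank. Hoxa5, a gene of cervical and upper thoracic identity that is needed for the respiratory tract, had the highest peak of the cluster in aNPC (chr6:52152841-52154434, −log10 q of 129.8, 95.5 percentile) and in eA (chr6:52152798-52154423, 96.2, 94.6 percentile). In lA the Hoxa5 peak (chr6:52153021-52154465) had a −log10 q of 34.4 and stood at the 90.9 percentile. Its summit lay 790, 783 and 1212 bp inside the gene, and since the peak ended before the start site it was not counted at the promoter. The widest aNPC peak (chr6:52107787-52109740, 1954 bp) lay in the 3′ flank beyond Hoxa2, with a −log10 q of 115.1 (94.5 percentile). At that place eA had a peak at chr6:52108426-52109615 (73.1, 91.3 percentile), and lA had its highest Hoxa peak at chr6:52108433-52109713 (59.0, 97.2 percentile).

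The Hoxa4 promoter, of a gene active in the caudal hindbrain and neck, bore H3K27ac at every stage, with −log10 q of 54.3, 61.6 and 11.1 at the 85.4, 89.2 and 61.9 percentile. Hoxa7 stood at the 73.6 percentile in aNPC, 85.5 in eA and 5.19 in lA, where the remaining peak of 196 bp (−log10 q of 3.28) no longer met the promoter. Both genes thus ranked lowest in lA. A pair of sites before Hoxa4, with centres at −5478 and −6064 bp from its start, ranked lowest in eA (35.0 and 36.6 percentile), with 78.9 and 60.8 in aNPC and 65.0 and 53.4 in lA.

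Hoxa2, the gene that sets the identity of the second branchial arch and the front of the hindbrain, had 4 sites with H3K27ac in eA alone. These were chr6:52113679-52113836 (−log10 q of 4.55), chr6:52114017-52114632 (14.8), chr6:52116022-52116264 (5.18) in the promoter, and chr6:52118391-52118995 (12.1) further upstream. Between them lay a weak site of lA alone (chr6:52116598-52116871, 5.24, 26.3 percentile) and a weak site of every stage (chr6:52117664-52118239), with −log10 q of 2.96, 6.82 and 2.92 at the 2.53, 36.4 and 2.64 percentile. None of the 4 sites of eA alone overlapped an H3K4me1 peak at any stage. The other 3 Hox sites of eA alone, in Hoxb, did overlap H3K4me1, which made 3 of 7 (42.9%) in all, against 83.6% of the sites of eA alone in the genome.

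In Hoxd, the highest peak of each list lay at the most upstream start of Hoxd3, which is in the interval between Hoxd8 and Hoxd4. Hoxd3 acts in neck vertebrae and the caudal hindbrain. The peak spanned chr2:74549436-74550696 in aNPC (−log10 q of 194.6, 98.2 percentile), chr2:74549666-74550611 in eA (32.1, 79.4 percentile) and chr2:74549531-74550796 in lA (59.5, 97.2 percentile). Hoxd8, a gene of the trunk, had promoter values of 86.2, 9.33 and 32.4, at the 91.6, 48.1 and 89.9 percentile. At Hoxd9, which patterns the lumbar region with its paralogues, a peak of 1363 bp in aNPC (97.4, 92.9 percentile) was followed by 314 bp in eA (5.68, 28.5 percentile) and 1408 bp in lA (18.2, 77.4 percentile). The eA peak of Hoxd9 lay inside the gene and was not counted at the promoter.

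The Hoxd peaks therefore ranked lower in eA than at the stages before and after it. All 5 Hoxd sites with H3K27ac at every stage had their lowest percentile in eA, against 5 of 9 shared sites in Hoxa and 25.1% of 34512 shared sites in the genome. The 5 Hoxd sites covered 6134, 2492 and 6130 bp in aNPC, eA and lA, and the 9 Hoxa sites 7491, 7207 and 6577 bp. The median width of an H3K27ac peak over the whole list was 435, 389 and 429 bp, and in Hoxd it was 982, 335 and 598 bp. These are single merged lists, and neighbouring sites of a cluster are not independent of each other.

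**Figure D2:**
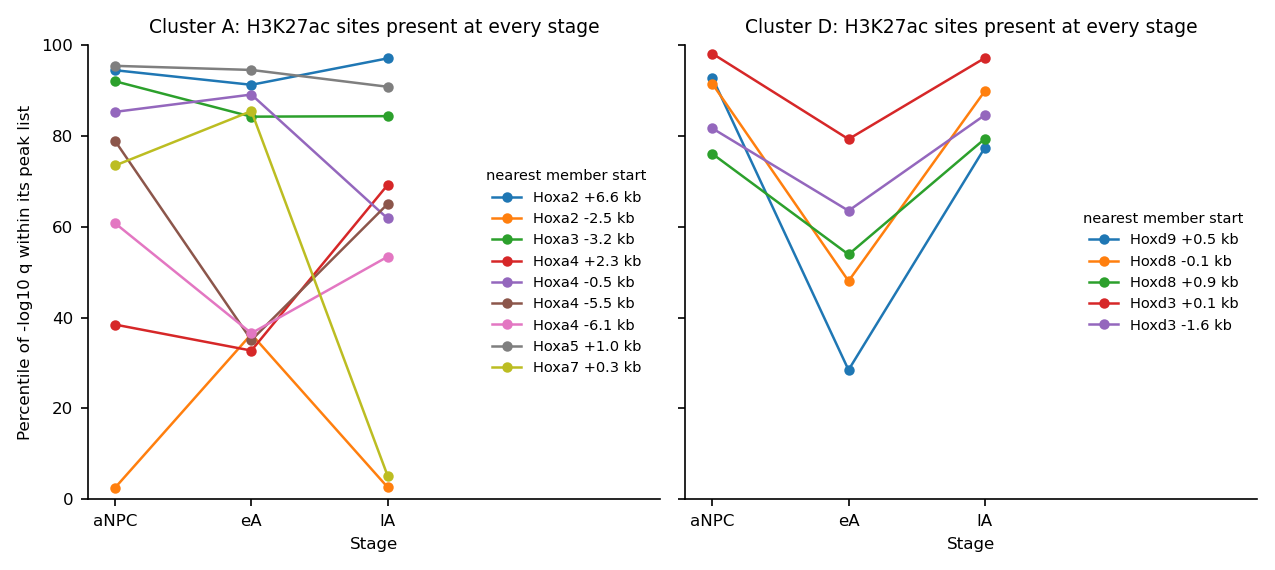
Rank of the H3K27ac sites present at every stage in Hoxa (9 sites, left) and Hoxd (5 sites, right). The vertical axis is the percentile of −log10 q within the list of a stage, the horizontal axis the stage, and each line is a site named by its nearest member start and the distance of its centre from it. All 5 Hoxd lines dip in eA, while the Hoxa lines take different courses.

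Hoxd4, a gene of the caudal hindbrain, had separate aNPC and lA peaks. In aNPC the promoter peak was chr2:74558877-74559225 (−log10 q of 12.6, 57.5 percentile), and in lA it was chr2:74564355-74564652 (7.18, 43.3 percentile), at a more downstream start. The lA peak met a promoter of Hoxd3 as well, and its summit was nearest to that Hoxd3 start, at −245 bp, so that it cannot be given to Hoxd4 alone. The lA peak lay 161 bp from the hairpin of Mir10b, a microRNA gene beside Hoxd4 that is transcribed with its Hox neighbours. An eA H3K4me1 peak (chr2:74564278-74564960) had covered the place of that lA site. In lA, an H3K4me1 peak (chr2:74564809-74565065, −log10 q of 4.98) lay close beside it without overlap. Of the 4 Hox sites with H3K27ac in lA alone, 0 overlapped an H3K4me1 peak in lA itself (exact 95% interval 0 to 60.2%), against 73.2% of such sites in the genome. In eA, H3K4me1 overlapped 3 of these 4 sites, against 60.5%, and no further one at another stage (80.8% in the genome at any stage). The microRNAs of the miR-10 and miR-196 families, which lie in the clusters, are given because their distance from H3K27ac differed between clusters. The mature sequences are those of RefSeq (GRCm38.p6), matched by symbol for the 5 genes of these families, with the seed in capitals.
miR-10b-5p: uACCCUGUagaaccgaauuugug
miR-10a-5p: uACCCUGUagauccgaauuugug
miR-196b-5p: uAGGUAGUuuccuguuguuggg
miR-196a-5p: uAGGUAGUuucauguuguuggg

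miR-10b of Hoxd and miR-10a of Hoxb share their seed, as do miR-196b of Hoxa and miR-196a of Hoxb and Hoxc. The nearest H3K27ac peak of any stage was 161 bp from Mir10b but 24823 bp from Mir10a. Mir196b, beyond the Hoxa7 edge, was 8254 bp from the nearest H3K27ac peak, and Mir196a-1 and Mir196a-2 were 19082 and 25895 bp away. The nearest H3K4me1 peaks were closer, at 84 bp for Mir10b, 276 bp for Mir196b and 2650 bp for Mir10a.

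All 38 members were then sorted by the marks at their promoters, taken as the 1 kb before any coding start and the first 100 bp after it. H3K27ac was found at 7 Hox promoters in aNPC (18.4%, exact 95% interval 7.74 to 34.3), 6 in eA (15.8%, 6.02 to 31.3) and 5 in lA (13.2%, 4.41 to 28.1). Over all coding genes the shares were 50.7%, 53.3% and 48.3%. H3K4me1 was found at 18 Hox promoters in aNPC (47.4%, 31.0 to 64.2), 17 in eA (44.7%, 28.6 to 61.7) and 23 in lA (60.5%, 43.4 to 76.0), against 55.6%, 53.7% and 52.9%. With lists of equal size, H3K4me1 was at 18, 15 and 16 Hox promoters, so that the higher count of lA was not kept, and the H3K27ac counts stayed at 7, 6 and 5. For H3K27ac the intervals lay below the share of all coding genes, and for H3K4me1 they included it. The intervals cover counting error alone, and the members share clusters.

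**Figure D3:**
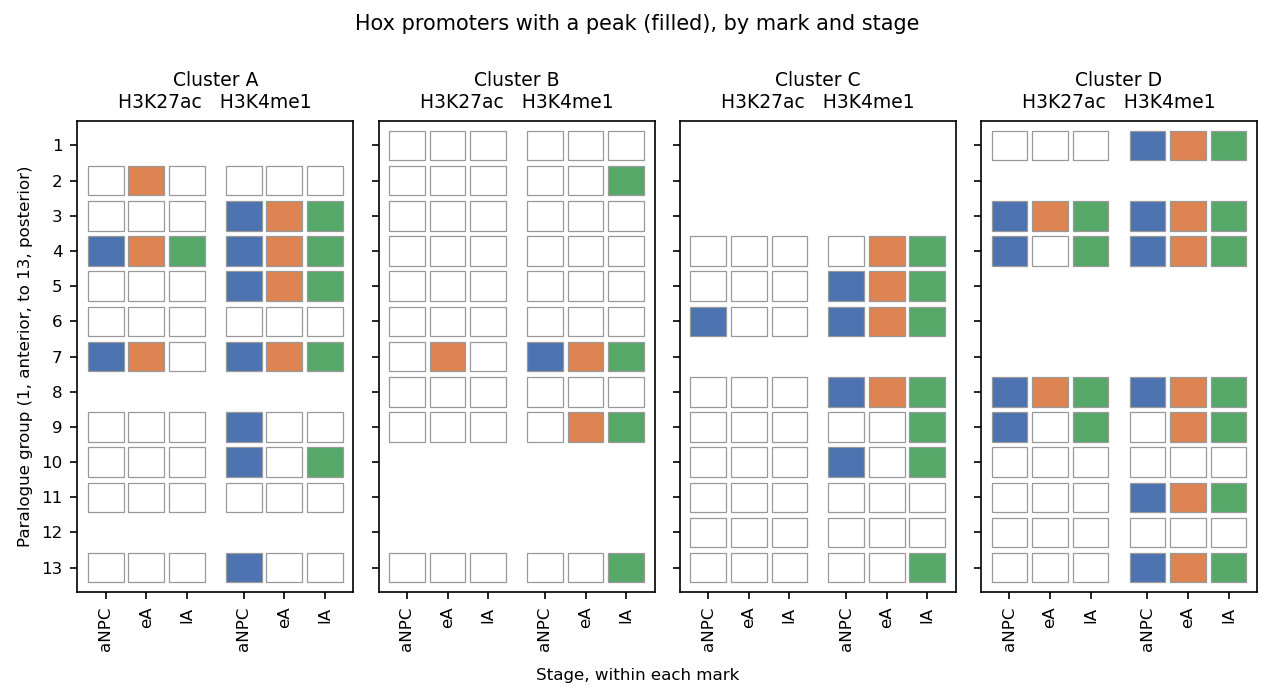
Promoters of the 38 Hox genes by cluster (panels) and paralogue group (vertical axis), with H3K27ac in the left 3 columns and H3K4me1 in the right 3 (aNPC, eA, lA). A filled square is a promoter with a peak and an open square one without; positions with no square have no member. H3K27ac is filled mostly in clusters A and D, and H3K4me1 spreads over all clusters.

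Hoxa4, Hoxd3 and Hoxd8 had promoter H3K27ac at all 3 stages, a pattern of 45.3% of coding genes. Hoxd4 and Hoxd9 had it in aNPC and lA (0.311%), Hoxa7 in aNPC and eA (3.74%), Hoxc6 in aNPC alone (1.31%), and Hoxa2 and Hoxb7 in eA alone (2.55%). The aNPC and lA pattern did not come from a single site that lacked H3K27ac in eA. The Hoxd9 site had an eA peak just outside the promoter. The Hoxd4 promoter had a site of aNPC alone and, at the other start, a site of lA alone that met a Hoxd3 promoter as well. None had it in eA and lA but not in aNPC (1.69%). In all, 9 members had promoter H3K27ac at some stage, against 55.9% of coding genes, and 29 had none (44.1%). By position, promoter H3K27ac was found in aNPC at 1 of 7 anterior, 5 of 15 central and 1 of 16 posterior members, in eA at 2, 4 and 0, and in lA at 1, 3 and 1.

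The most frequent state of a Hox promoter was H3K4me1 without H3K27ac. It was found at 17 of 38 members (10.1% of coding genes), and 8 had both marks at some stage (50.7%), 1 had H3K27ac without H3K4me1 (Hoxa2, 5.23%) and 12 had neither (34%). The 17 were Hoxa3, Hoxa5, Hoxa9, Hoxa10 and Hoxa13 of cluster A, Hoxb2, Hoxb9 and Hoxb13 of cluster B, Hoxc4, Hoxc5, Hoxc8, Hoxc9, Hoxc10 and Hoxc13 of cluster C, and Hoxd1, Hoxd11 and Hoxd13 of cluster D. The 12 without a peak were Hoxa6, Hoxa11, Hoxb1, Hoxb3, Hoxb4, Hoxb5, Hoxb6, Hoxb8, Hoxc11, Hoxc12, Hoxd10 and Hoxd12. H3K4me1 was at 14 promoters at every stage (46.8% of coding genes), at 3 in eA and lA (Hoxb9, Hoxc4 and Hoxd9, 1.87%), at 2 in aNPC and lA (Hoxa10 and Hoxc10, 2.03%), at 2 in aNPC alone (Hoxa9 and Hoxa13, 2.93%), at 0 in aNPC and eA (3.78%) and at 0 in eA alone (1.21%). These patterns too depend on where the promoter ends, since at Hoxb9, Hoxc4, Hoxd9 and Hoxa10 the same site had an H3K4me1 peak at every stage, inside the gene where it missed the promoter. In all, 25 members had it at some stage (60.8%) and 13 at none (39.2%). Paralogues did not all share a state, since Hoxa4 and Hoxd4 bore H3K27ac, Hoxc4 H3K4me1 alone and Hoxb4 neither.

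These counts depend on how a promoter is defined. Within 1 kb on both sides of any annotated start, those of transcripts that are not coding included, H3K27ac was found at 10, 9 and 8 members, against 53.3%, 56.2% and 52.6% of coding genes. Hoxa5 and Hoxd9 then had H3K27ac at every stage. For H3K4me1 this gave 24, 21 and 25 members, against 64.1%, 64.1% and 63.3%. Of the 12 members without a promoter peak, Hoxa6 then had both marks, and Hoxb3 and Hoxd10 had H3K4me1. Some members also have starts far from the main body of the gene, as Hoxa3 beside Hoxa6 and Hoxd3 beside Hoxd8, so that a promoter peak of such a member lies beside another gene.

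H3K4me1 moved in opposite directions in the clusters. Hoxa held 36, 23 and 19 H3K4me1 peaks in aNPC, eA and lA and Hoxd 21, 19 and 18, while Hoxb held 3, 5 and 14 and Hoxc 9, 8 and 14. The covered share of the window went from 11.01% to 9.25% and 7.22% in Hoxa and from 8.13% to 6.43% and 6.47% in Hoxd. It went from 0.675% to 1.15% and 3.15% in Hoxb and from 2.21% to 1.87% and 5.14% in Hoxc. In the genome it was 3.45%, 4.20% and 4.45%. Since the later lists are longer, the lists were also cut to the same number of peaks by rank, which gave 36, 20 and 11 in Hoxa, 21, 15 and 12 in Hoxd, 3, 5 and 8 in Hoxb and 9, 7 and 12 in Hoxc.

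**Figure D4:**
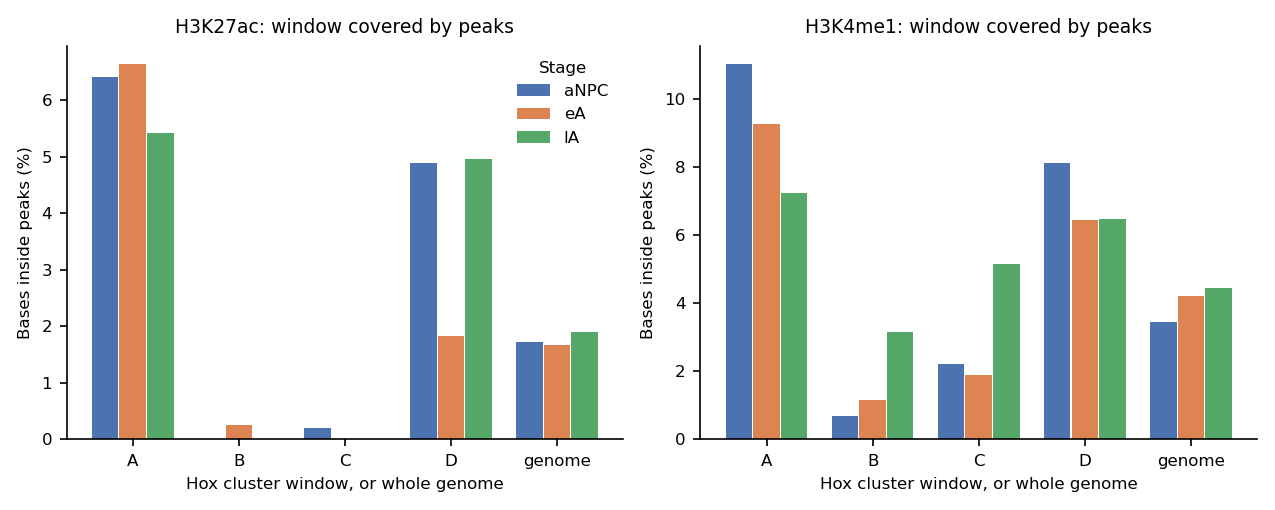
Share of each Hox window inside peaks (%, vertical axis) of H3K27ac (left) and H3K4me1 (right), by cluster and stage, with the whole genome for comparison. Each bar is 1 merged list, without error bars. H3K27ac covers Hoxa and Hoxd above the genome level, except that Hoxd in eA (1.82%) is close to it (1.67%), and H3K4me1 becomes lower in Hoxa and higher in Hoxb and Hoxc by lA.

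Of 36 H3K4me1 sites in Hoxa, 11 were found in aNPC alone (7.80% of the sites of the genome), 6 in aNPC and eA (7.72%), 5 in lA alone (23.3%) and 13 at every stage (39.1%). Of the 11 sites of aNPC alone, 7 were nearest to the posterior genes Hoxa9, Hoxa10 and Hoxa13. Their −log10 q ran from 3.06 to 8.28, and some of them lay below 5. At Hoxa13, the gene of the autopod and the hindgut end, the promoter peaks of aNPC (−log10 q of up to 8.28, 40.9 percentile) had no counterpart in eA or lA, and at Hoxa9 a weak aNPC promoter peak (3.06, 2.62 percentile) had none either. The highest H3K4me1 peak of Hoxa in aNPC lay 3′ of Hoxa4 (chr6:52138721-52139727, −log10 q of 29.9). In lA the highest was at Hoxa7 (chr6:52171203-52172331, 11.7, 63.9 percentile), and it straddled the H3K27ac edge.

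In Hoxb and Hoxc, sites of lA alone made the difference, with 11 of 15 H3K4me1 sites in Hoxb and 6 of 15 in Hoxc. Across the 4 clusters, 23 of 89 H3K4me1 sites (25.8%) were of lA alone, against 23.3% of the genome. H3K4me1 was at the Hoxb2, Hoxb13, Hoxc9 and Hoxc13 promoters in lA alone, a pattern of 2.13% of coding genes. At Hoxb2, Hoxb13 and Hoxc13 these were sites of lA alone, whereas the Hoxc9 site had peaks inside the gene in aNPC and eA as well (−log10 q of 4.86, 6.22 and 7.48, at the 17.9, 32.0 and 41.7 percentile). Of the 7 posterior members of Hoxb and Hoxc, 1, 1 and 5 had promoter H3K4me1 in aNPC, eA and lA, against 55.6%, 53.7% and 52.9% of coding genes, and 3, 2 and 5 had it within 1 kb of any start. At Hoxb9, which acts in the thorax, the site across the start and the first part of the gene had an H3K4me1 peak of up to 6.86 in aNPC (32.9 percentile), 16.5 in eA (74.6 percentile) and 20.4 in lA (86.7 percentile), and it met the promoter in eA and lA. A further site of lA alone lay just before it (9.17, 51.5 percentile). At Hoxc8, also a thoracic gene, the site had up to 6.17 in aNPC (28.3 percentile), 6.85 in eA (36.7 percentile) and 16.9 in lA (79.7 percentile). Hoxc5 had the highest H3K4me1 peak of all Hox windows in lA (chr15:102844238-102845232, 38.3, 98.9 percentile), after 22.1 (78.2 percentile) in aNPC and 14.1 (68.4 percentile) in eA.

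Hoxb7 and Hoxc6, which act in the thoracic trunk and the forelimb level of the cord, were marked by H3K4me1 at every stage. Hoxb7 had −log10 q of 16.4, 26.3 and 19.04, at the 67.2, 90.2 and 84.2 percentile, and Hoxc6 34.8, 29.1 and 23.0, at the 92.0, 92.7 and 90.3 percentile. The weak H3K27ac peaks at these genes, 3.72 at Hoxb7 in eA and 3.54 at Hoxc6 in aNPC, lay inside the H3K4me1 peaks of the same stage. Hoxd1, which acts in sensory neurons, had the highest H3K4me1 peak of Hoxd at each stage (35.8, 20.8 and 28.6, at the 92.6, 83.1 and 95.4 percentile) and no H3K27ac peak. Hoxd13 likewise had promoter H3K4me1 without H3K27ac, of 22.7, 11.8 and 19.8 at the 78.9, 60.9 and 85.6 percentile.

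Over the 4 clusters, 67 of 89 H3K4me1 sites (75.3%, exact 95% interval 65.0 to 83.8) met no H3K27ac peak at any stage, against 59.2% of the genome. By cluster they were 24 of 36 in Hoxa, 13 of 15 in Hoxb, 14 of 15 in Hoxc and 16 of 23 in Hoxd. The H3K27ac sites numbered 32, of which 14 (43.8%, 26.4 to 62.3) were present at every stage, against 25.95% of the genome. None was shared by eA and lA alone, against 13.9% of the genome. H3K4me1 overlapped 21 of the 32 sites in aNPC (65.6%), 22 in eA (68.8%) and 16 in lA, where the genome had 68.7%, 77.4% and 75.4%.

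Other genes of regional identity were counted in the same way, and are to be read against the 50.7%, 53.3% and 48.3% of all coding genes with promoter H3K27ac. Of 11 forebrain transcription factors, 6, 7 and 5 had promoter H3K27ac in aNPC, eA and lA, about the share of all coding genes. Emx2, Otx1, Lhx2, Pax6 and Dlx1 had it at every stage, and Emx1, Otx2, Nkx2-1 and Gsx2 at none. Of 8 midbrain and isthmus genes, 2 had it at each stage, En1 and Gbx2, while 7, 6 and 7 had H3K4me1 (55.6%, 53.7% and 52.9% of all coding genes). Of 11 regulators of Hox genes, 8 had H3K27ac at every stage, namely the retinoic acid receptors Rara, Rarb and Rarg, the hindbrain factor Egr2, the Trithorax gene Kmt2a and the Polycomb genes Ezh2, Eed and Suz12. The 3 without it were Cdx1, Cdx2 and Cdx4, which activate Hox genes of the trunk. Of 9 cofactors of HOX proteins of the Pbx, Meis and Pknox families, 9, 8 and 8 had promoter H3K27ac, and Pknox2 was the one without it after aNPC. Merged lists of cultures cannot tell whether the same cells carried H3K27ac at these promoters and at the Hox genes.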

How the data were processed

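H3K27ac and H3K4me1 ChIP-seq of aNPC, eA and lA were used, with 12 of 51 samples. The authors kept uniquely mapped reads (Bowtie, mm9), pooled the 2 replicates of a stage and mark with SAMTOOLS (0.1.19 in the submitters' processing notes), and called peaks with MACS2 at default settings and no input control. Each deposited list gives the position of a peak, its summit and a −log10 q of the authors, which depends on the depth of a list and was therefore ranked within it, as a percentile. Peaks were intersected here with the GENCODE M1 annotation of mm9. A promoter was the 1 kb before a coding start with the first 100 bp after it, and it had a peak if they overlapped by at least 1 bp. Overlapping peaks of the stages were merged into sites. All Hox members are accounted for, and peaks named by position are the highest and widest of a cluster and list and the highest sites of 1 stage, with others chosen after their values were seen. The members and lists were chosen with earlier results of these data known. Some genes of the lists are not reported here and were left out of their counts. Shares have 95% Clopper-Pearson intervals, which cover counting error. Motif letters were matched on both strands of the mm9 genome in the 200 bp around summits. The annotated site of a summit that lies in several genes was given to all of them. RNA-seq and knockdown samples were not used here, and 8 RNA-seq samples with conflicting labels were left unassigned. The overlap and merging steps were tested on simulated data. Stricter peaks (−log10 q of at least 5), lists of equal size, other flanks, promoter definitions and overlaps were tried. Python 3.11.15, NumPy 2.4.6, pandas 2.3.3, SciPy 1.17.1 and matplotlib 3.10.9 were used.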

Additional observations from a re-analysis of the deposited data

How the results depend on the processing

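No paired analysis was possible because the replicates of a stage were merged before the peaks were called, and for the same reason no replicate could be left out. Each of 20 counts was recomputed under the settings that apply to it, 88 values in all, and 74 stayed within 1.5 times the count reported. With a peak counted only if its summit lay inside the promoter, H3K27ac was found at 4 Hox promoters in aNPC and 3 in eA, and H3K4me1 at 10 in eA and 14 in lA. Within 1 kb on each side of any start, 8 promoters had H3K27ac in lA. With lists of equal size, the lA list held 43 Hox H3K4me1 peaks in place of 65, and the H3K27ac sites of aNPC and eA alone numbered 4. If peaks needed a −log10 q of 5 or more, the H3K27ac sites of eA alone numbered 4 and those of aNPC and lA alone 0. With an overlap of at least 50% of the shorter peak, the H3K27ac sites of aNPC alone numbered 5, of lA alone 7, of aNPC and lA 1 and of eA and lA 1. With flanks of 50 kb, 2 sites were shared by eA and lA, and without flanks none of 14 values moved beyond 1.5 times. The cause of these changes was not tested beyond the construction of each setting. The depth of the merged lists is unknown, which limits every statement on a missing peak.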
